A study of Danio rerio with 12 samples.

Results

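Zebrafish larvae exposed to bisphenol A (BPA) at 4 mg/L, the highest dose of the series, were compared with larvae kept in solvent alone. The sample titles put 3 libraries in each of these groups, so that 6 of the 12 libraries of the series carry the comparison. Of the 31540 genes in the count tables, 22399 passed a filter on low counts and were tested. Both groups were wild-type whole larvae at 5 days post fertilization, 10 larvae were pooled for each library, and the water of both held 0.2% DMSO. BPA was added to the water of the treated group from day 2 to day 5. The other 6 libraries came from larvae kept in the same way with BPA at 0.1 or 1 mg/L. Their levels are given for some genes beside those of the main groups. The labels do not say whether pools came from separate clutches or dishes, so the p-values measure the spread between such pools, which may be technical.

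BPA is a monomer of polycarbonate plastic and epoxy resin that binds estrogen receptors weakly. In zebrafish, estrogen receptors switch on the brain aromatase gene in radial glia and the yolk protein genes in the liver. The larval liver also makes most blood proteins, takes part in folate and methionine metabolism and secretes bile acids, which the gut takes up again. Skeletal muscle, a large share of the larval body, breaks down its own proteins through ubiquitin ligases, the proteasome and autophagy, which FOXO transcription factors switch on in fasting.

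Total counts were 21.95 to 31.81 M (mega, as in Mb) in the controls and 29.17 to 32.13 M at 4 mg/L. Mitochondrial transcripts took 2.05% to 2.33% of control counts and 2.5% to 2.89% at 4 mg/L. Libraries of a group differed by more than counting noise, with a chi-square per degree of freedom of 26.2 to 71.3 among controls and 47.1 to 55.0 at 4 mg/L, and all 6 were kept. Markers of hepatocytes, enterocytes, skeletal muscle, red cells, exocrine pancreas, photoreceptors, epidermis, pituitary, radial glia and of neutrophils and macrophages were all detected. In bulk RNA of this kind, fewer cells of a type and less RNA per cell cannot be told apart.

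At 4 mg/L, 38 genes were higher and 25 lower than in the solvent control (edgeR quasi-likelihood test, Benjamini-Hochberg adjusted p under 0.05). This was 0.281% of the tested genes, 0.17% higher and 0.112% lower. A further view of the background is that 2781 genes had an unadjusted p under 0.05 and that the median log2 fold change of all tested genes was −0.0029. The higher genes encode the brain aromatase, blood proteins, apolipoproteins, enzymes of folate and methionine metabolism, and transporters of bile acids and metal ions. The tissue that made these transcripts was not measured in whole larvae. The lower genes encode muscle ubiquitin ligases and proteasome factors, autophagy receptors, enzymes of sugar breakdown in muscle and the iron hormone hepcidin. The change was at least 2-fold (a log2 fold change of 1 in size) for 42 of the 63 called genes. For all 63, the 3 treated libraries lay on 1 side of the 3 controls, which held for 8.23% of all tested genes upward and 8.91% downward. The test on these same libraries chose the 63 genes, so this separation is no separate support for them. Of the called genes, 61 are typed as protein-coding in the files; cyp19a1b is typed there as an unprocessed pseudogene and si:ch211-198i6.4 as a lincRNA.

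**Figure D1:**
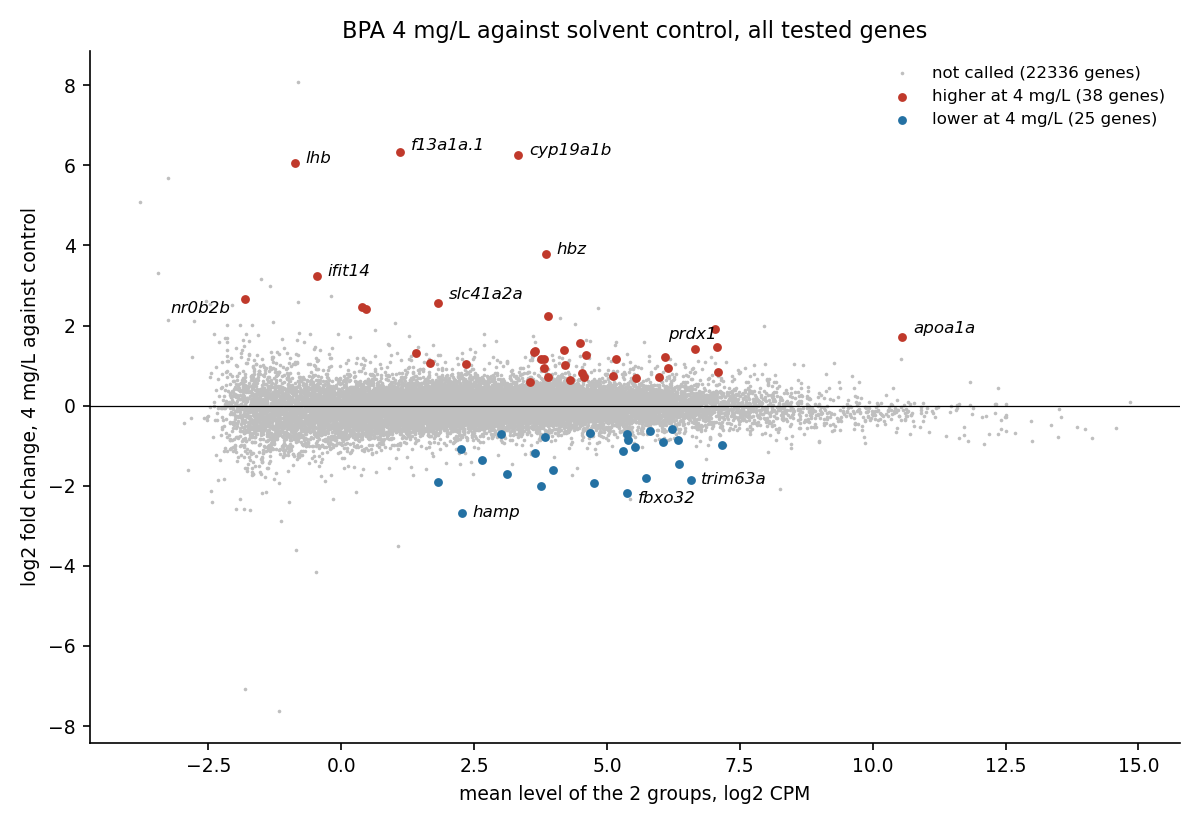
Log2 fold change at 4 mg/L against control (vertical axis) by the mean level of both groups in log2 CPM, the counts per M counts of a library (horizontal axis) for the 22399 tested genes. Red points are the 38 genes called higher, blue points the 25 called lower and grey points the genes not called; cyp19a1b, f13a1a.1 and lhb lie above a log2 fold change of 6, and hamp is the lowest called gene at −2.69.

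The calls differed in how far they rested on single libraries. Of the 63 genes, 12 were called in each of the 6 fits that left out 1 library of the groups compared. They were cyp19a1b, CPN2, vtna, vtnb, prdx1, mthfd1a and slc51a among the higher genes and fbxo32, trim63a, klhl38b, gpib and hamp among the lower ones. The number of the 63 that kept their call was 15, 14 and 18 without control 1, 2 and 3, and 25, 22 and 43 without 4 mg/L replicate 1, 2 and 3. For each other gene described here, the highest adjusted p of these 6 fits is given with the library left out. Just inside the threshold lay pfkma and ifit14 (adjusted p = 0.048 each) and si:ch1073-398f15.1 (0.0495). Just outside it lay calcoco1b (log2 fold change −1.73, adjusted p = 0.051), the endocytic receptor gene lrp2b (1.24, 0.052), and paics, gsr and gpa33 (0.056 each).

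The brain aromatase gene and a gene of the pituitary showed some of the largest differences. Levels are given as CPM, counts per M counts of the scaled library. cyp19a1b (ENSDARG00000098360) encodes the aromatase of radial glia, which turns androgens into estrogens. Its level was 0.204, 0.243 and 0.358 CPM in controls 1, 2 and 3, with 7 counts in each, and 14.6, 25.5 and 19.5 CPM at 4 mg/L. The lowest treated library lay far above the highest control, and the means were 74.1-fold apart (0.268 ± 0.0797 and 19.9 ± 5.45 CPM, SD, n = 3; log2 fold change 6.25, SE 0.29, adjusted p = 6.3e-07). f13a1a.1 (ENSDARG00000045453), which encodes a coagulation transglutaminase chain, had 2, 1 and 1 counts in the controls and 93, 247 and 70 counts at 4 mg/L. Its treated libraries were spread widely, with replicate 2 at 7.87 CPM and the others at 2.60 and 2.34 CPM, and the ratio of summed counts was 95.2 with a 95% interval of 36.9 to 351 that covers counting error only. The test gave a log2 fold change of 6.35 (SE 0.79, adjusted p = 0.0061; 0.062 without control 2 and 0.052 without control 1). lhb (ENSDARG00000099363), the beta subunit of luteinizing hormone, had 0, 1 and 0 counts in the controls and 21, 48 and 34 at 4 mg/L. With so few control counts its ratio was 95.6 (counting interval 16.8 to 3813). The adjusted p of lhb was 0.0083 and became 0.072, 0.067 and 0.051 without control 1, 2 and 3.

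Other genes of the estrogen response were not called. The yolk protein precursor genes vtg1 and vtg2 were below the filter, with 3 counts each over the controls and 32 and 15 at 4 mg/L (ratios 9.9, interval 3.1 to 50.5, and 4.64, interval 1.31 to 25). Of the 32 vtg1 counts, 12, 18 and 2 came from replicates 1, 2 and 3, so that replicate 3 overlapped the controls, and copies of this family can share reads. Among the receptors, esr1 was 0.308 ± 0.0354 CPM at 4 mg/L against 0.205 ± 0.101, esr2a 0.549 ± 0.216 against 0.455 ± 0.171 and esr2b 2.64 ± 0.621 against 2.49 ± 0.365 (adjusted p = 0.62, 0.84 and 0.87). The gonadal aromatase gene cyp19a1a was below the filter at 0.0311 ± 0.00281 CPM against 0.0535 ± 0.0512. In the list of 10 tested estrogen response genes the 3 called were cyp19a1b, f13a1a.1 and lhb, and the list was put together with these results known. All 10 were above 0, as were 49.6% of all tested genes. Their median log2 fold change was 0.43, with 0.25 without control 2 and 0.62 without control 1. The 16 tested radial glia genes, the cells that make brain aromatase, held 8 above 0 and 0 called, and their median log2 fold change was −0.01, with −0.095 without control 1 and 0.07 without control 3 (edgeR; 1 with an unadjusted p under 0.05, 0 by DESeq2). A shorter set of 5 radial glia markers had 4 above 0, with cyp19a1b called, and a median of 0.34. Its 4 other markers summed to 442, 374 and 451 CPM in the controls and 558, 609 and 452 CPM at 4 mg/L, with none at 0, and the part of this in the cyp19a1b value was not tested. The dioxin-responsive gene cyp1a was 19.2 ± 8.02 CPM against 13.3 ± 0.409 (adjusted p = 0.51).

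**Figure D2:**
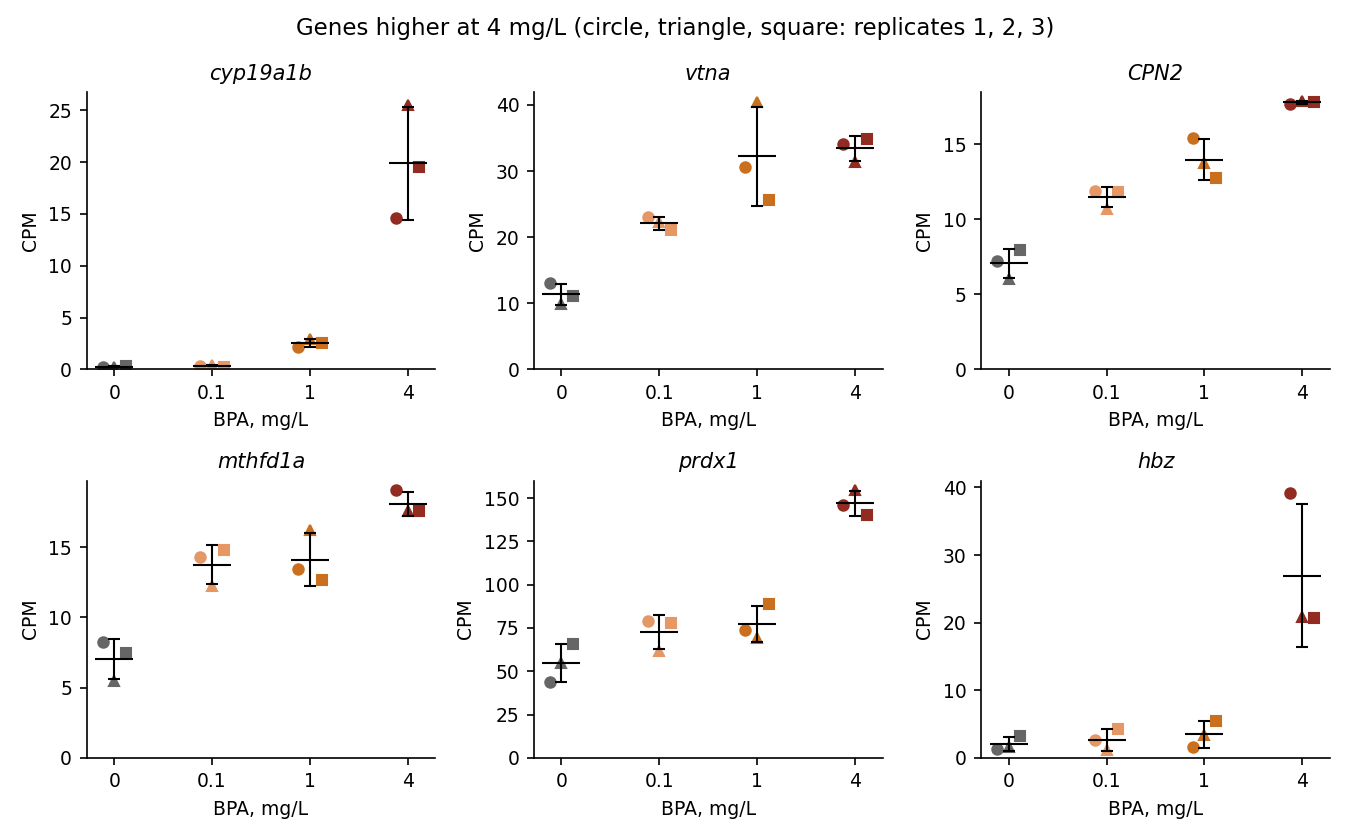
Level in CPM (vertical axis, from 0) by BPA dose in mg/L (horizontal axis) for 6 genes called higher at 4 mg/L; each point is a library, with circle, triangle and square for replicates 1, 2 and 3, the long bar is the mean of the 3 libraries and the error bar 1 SD. CPN2 lies between 17.7 and 17.9 CPM in the 3 libraries at 4 mg/L and at 7.97 CPM or less in the controls, whereas hbz is at 5.5 CPM or less in every library of the lower doses and at 20.7 CPM or more at 4 mg/L.

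Several genes of blood proteins made by the liver were called higher at 4 mg/L. The gene listed as CPN2, a symbol of the regulatory subunit of plasma carboxypeptidase N, has no descriptive name in a reference gene table (zgc:153913). It was 7.20, 6.04 and 7.97 CPM in the controls and 17.7, 17.9 and 17.8 CPM at 4 mg/L. Its treated libraries hardly differed from each other and the mean was 2.52-fold higher (log2 fold change 1.34, SE 0.13, adjusted p = 0.0014). The vitronectin gene vtna, whose product is a blood and matrix adhesion protein, was 13.1, 9.92 and 11 CPM in the controls and 34.1, 31.3 and 34.9 CPM at 4 mg/L. Its duplicate vtnb was 22.6, 19 and 25.3 CPM in the controls and 46.4, 52.2 and 51.0 CPM at 4 mg/L. Both vitronectin genes thus lay clearly above every control, 2.95-fold (log2 fold change 1.56, SE 0.16, adjusted p = 0.0028) and 2.24-fold (1.16, SE 0.13, adjusted p = 0.0034). f2, which encodes prothrombin, was 43.7, 33.2 and 46.4 CPM in the controls and 94.3, 104 and 88.0 CPM at 4 mg/L, 2.32-fold higher (adjusted p = 0.011; 0.075 without control 2).

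Further genes of secreted proteins and lipid carriers rose. c8g, a subunit of the complement attack complex, rose 1.51-fold, from 9.30 ± 0.613 to 14.1 ± 0.675 CPM (adjusted p = 0.029; 0.15 without control 2). pon1, the paraoxonase carried on high-density lipoprotein, was 14.5, 16.1 and 16.2 CPM in the controls and 25.8, 22.9 and 23.7 CPM at 4 mg/L. It rose 1.55-fold (adjusted p = 0.027; 0.14 without 4 mg/L replicate 1). CNDP1, a dipeptidase that cleaves carnosine and is found in human blood plasma, rose 1.64-fold from 47.5 ± 2.67 to 78.0 ± 10.4 CPM (adjusted p = 0.027; 0.15 without control 2). Among the carriers of blood lipid, apoa1a was 613, 658 and 829 CPM in the controls and 1725, 2272 and 2933 CPM at 4 mg/L. It was the most abundant called gene, 3.30-fold higher (adjusted p = 0.020; 0.11 without control 2). apoba was 90.3, 27.6 and 48.2 CPM in the controls against 226, 215 and 181 CPM, with control 1 the closest to the treated libraries, and was 3.75-fold higher (adjusted p = 0.041; 0.18 without control 3). afp4 (ENSDARG00000041490), 1 of 2 genes with that symbol in the files, is named for its likeness to fish antifreeze proteins and rose 5.43-fold from 0.410 ± 0.153 to 2.22 ± 0.858 CPM (adjusted p = 0.046; 0.16 without control 2).

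The wider lists of blood proteins, lipoproteins and hepatocyte genes lay mostly above 0 with few calls in edgeR. DESeq2 called 12 clotting, 7 complement, 7 lipoprotein and 13 hepatocyte genes higher. Over all tested genes it called 247 higher, against 38 in edgeR. In the list of clotting factors and vitronectins, 24 of 24 tested genes were above 0 (49.6% of all genes were), 4 were called higher and 0 lower, and the median log2 fold change was 0.81. Their summed level was 528 to 730 CPM in the controls and 991 to 1212 CPM at 4 mg/L. The 26 complement genes had 21 above 0, 1 called and a median of 0.81, with cfh, the soluble inhibitor factor H, at 54.0 ± 16.6 CPM against 18 ± 5.92 (adjusted p = 0.060). The C1q genes, which macrophages make, lay below 0: c1qa, c1qb and c1qc had log2 fold changes of −0.68, −0.29 and −0.20. The 24 lipoprotein genes had 18 above 0, 3 called higher and a median of 0.59. Of 38 tested hepatocyte genes, 29 were above 0, 3 were called higher and the median was 0.48 (0.29 without control 2). Those 3, vtna, vtnb and f2, are also in the clotting list. The lists share members, so their counts are not separate results. The 21 carrier and acute phase proteins had 12 above 0, 1 called higher (zgc:194626), 1 called lower (hamp) and a median of 0.29 (0.17 without 4 mg/L replicate 2), with ahsg1 and ahsg2 at −0.72 each and serpina7, a thyroxine carrier, at −1.06, none of them called. The summed level of 11 hepatocyte markers was 3642, 3733 and 4634 CPM in the controls and 4734, 4869 and 4932 CPM at 4 mg/L, with 0 of them called by edgeR and none at 0. Most of these markers, such as fgb and tfa, themselves encode blood proteins, so the sum is no separate measure of hepatocyte content. Its part in the rise of the plasma protein genes was not tested.

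Of the tested genes of folate and methionine metabolism, 3 of 35 were called higher and 0 lower. Among all tested genes, 0.17% were called higher, 0.112% lower, and 49.6% were above 0. The list was chosen with earlier results of these data known, so its counts are a description. mthfd1a, a cytosolic enzyme that interconverts folate forms, was 8.25, 5.48 and 7.46 CPM in the controls and 19.1, 17.6 and 17.6 CPM at 4 mg/L. The groups lay well apart, with a 2.56-fold higher mean (log2 fold change 1.36, SE 0.16, adjusted p = 0.0044). mthfd1l, its mitochondrial relative, was 10.6, 10.4 and 9.24 CPM in the controls and 35.6, 17.0 and 27.4 CPM at 4 mg/L. Replicate 2 was the treated library nearest to the tightly grouped controls, and the 2.64-fold rise (adjusted p = 0.046) had an adjusted p of 0.20 without control 2. mat1a, whose product forms the methyl donor S-adenosylmethionine in liver cells, was 83.8, 63.7 and 67.1 CPM in the controls and 179, 233 and 185 CPM at 4 mg/L, 2.78-fold higher (adjusted p = 0.0058; 0.062 without control 2). Outside this list, a gene listed as IZUMO1R, which a reference gene table names FOLR2, a folate receptor, was 6.56, 10.5 and 8.17 CPM in the controls and 13.4, 24.9 and 18.2 CPM at 4 mg/L. It was 2.24-fold higher, with the highest treated library again replicate 2 (adjusted p = 0.046; 0.16 without control 3). Of the 35 genes, 25 were above 0 and the median was 0.25 on the log2 scale (0.17 without 4 mg/L replicate 1); the thymidylate synthase gene tyms (0.62) and dnmt1, the maintenance DNA methyltransferase (0.62), were not called, and neither were bhmt (−0.06) and cbsa (−0.34).

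Of the tested bile acid genes, 3 of 20 were called higher and 0 lower. Over all tested genes, 0.17% were called higher, 0.112% lower, and 49.6% were above 0. This list too was chosen with earlier results of these data known, so its counts are a description. slc51a, a subunit of the transporter that releases bile acids from gut cells, was 13.9, 12.5 and 16.9 CPM in the controls and 34.5, 38.7 and 30.5 CPM at 4 mg/L, 2.4-fold higher (log2 fold change 1.27, SE 0.15, adjusted p = 0.0053). slc10a2, which takes bile acids up from the gut, was 6.42, 10.8 and 8.99 CPM in the controls and 16.8, 23.4 and 18.2 CPM at 4 mg/L, 2.23-fold higher (adjusted p = 0.022; 0.083 without 4 mg/L replicate 2). The RNA levels of both transporter genes thus lay above every control, and transport itself was not measured. nr0b2b, a duplicate of the gene of the nuclear receptor that represses bile acid synthesis in mammals, had 6 counts over the controls and 47 at 4 mg/L, a 7.27-fold ratio (95% counting limits 3.1 and 20.8; adjusted p = 0.046; 0.15 without control 2). amn, a partner of the endocytic receptor cubilin, was 3.44, 3.26 and 3.22 CPM in the controls and 6.69, 7.84 and 6.06 CPM at 4 mg/L, 2.08-fold higher (adjusted p = 0.015; 0.10 without control 2). Cubilin itself, cubn, was 21.8 CPM beside 10.9 in the controls (adjusted p = 0.11). Of the 20 bile acid genes, 19 were above 0, with a median log2 fold change of 0.57 that was 0.39 without 4 mg/L replicate 2. The rate-limiting enzyme gene of bile acid synthesis, cyp7a1, was 17.2 CPM against 14.9 (adjusted p = 0.84), and abcb11a, a bile salt export pump, was 10.0 ± 4.39 CPM against 2.92 ± 0.698 (adjusted p = 0.10). The summed level of 7 enterocyte markers was 1574, 1795 and 2139 CPM in the controls and 2840, 3904 and 4101 CPM at 4 mg/L, with none at 0. Without apoa1a, the 1 called gene among them, the sum was 961, 1137 and 1310 CPM in the controls and 1115, 1632 and 1168 CPM at 4 mg/L, so that the groups overlapped. The part of either sum in the transporter values was not tested. For 38 wider genes of gut epithelium, of which amn alone was called by edgeR, the median was 0.33, and 0.08 without 4 mg/L replicate 2.

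Further called genes encode redox enzymes and carriers of metal ions and water, from lists with few calls in edgeR. edgeR called 1 of 35 tested genes of oxidative stress and glutathione (23 above 0, median log2 fold change 0.15), 1 of 44 genes of the P450 families 2 and 3 (31 above 0, 0.25) and 1 of 26 genes of magnesium and ion transport (17 above 0, 0.12). In the same order, DESeq2 called 9, 4 and 1 genes higher and 0 lower. At an unadjusted p under 0.05 in edgeR, 14, 14 and 4 were higher and 3, 1 and 1 lower. Over all tested genes edgeR called 0.17% higher and 0.112% lower. The peroxidase gene prdx1, of the redox defence, was 44.0, 54.7 and 65.8 CPM in the controls and 146, 155 and 140 CPM at 4 mg/L, 2.68-fold higher with a wide gap between the groups (log2 fold change 1.42, SE 0.16, adjusted p = 0.0044). cyp2y3, a cytochrome P450 gene, rose 1.79-fold to 174 ± 16.5 CPM (adjusted p = 0.027; 0.14 without control 2), and cbr1l, a carbonyl reductase gene, 1.90-fold to 93.6 ± 8.63 CPM (adjusted p = 0.040; 0.16 without control 3). Of transporters, slc41a2a, which carries magnesium, was 1.17, 0.971 and 0.919 CPM in the controls and 5.80, 5.74 and 6.63 CPM at 4 mg/L, 5.94-fold higher (adjusted p = 0.0074; 0.064 without control 2). Both copies of the zinc exporter gene slc30a1 were called: slc30a1a was 29.1, 24.5 and 24.4 CPM in the controls and 41.1, 49.5 and 39.4 CPM at 4 mg/L, and slc30a1b was 1.92, 1.84 and 2.5 CPM and 3.36, 4.56 and 5.02 CPM. They were 1.67-fold and 2.07-fold higher (adjusted p = 0.036 and 0.041; 0.22 and 0.19 without control 2). The aquaporin gene aqp11 rose 1.75-fold to 29.5 ± 1.69 CPM (adjusted p = 0.016) and MCOLN3, a cation channel of endosomes and lysosomes, 2.51-fold to 3.78 ± 0.345 CPM (adjusted p = 0.018), both with 0.11 without control 2.

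Among the rest, fkbp11, a protein folding enzyme of the endoplasmic reticulum, rose 2.01-fold to 24.8 ± 2.85 CPM (adjusted p = 0.043; 0.23 without control 2). igfbp2a, a binding protein of insulin-like growth factors, was 34.6, 35.9 and 36.8 CPM in the controls and 63.5, 60.2 and 49.4 CPM at 4 mg/L, 1.61-fold higher (adjusted p = 0.046; 0.21 without 4 mg/L replicate 1). cgref1 rose 1.92-fold (adjusted p = 0.046; 0.25 without control 2), spata13 1.63-fold (0.038; 0.17 without control 2), tmem110l 1.64-fold (0.020; 0.11 without control 2) and si:dkey-31g6.6 4.65-fold (0.020; 0.11 without control 2). ifit14, of an interferon-induced family, had 1, 7 and 3 counts in the controls and 35, 59 and 33 at 4 mg/L (adjusted p = 0.048; 0.16 without 4 mg/L replicate 2). It was the only call among 21 tested interferon genes, whose median log2 fold change was below 0.01 in size, −0.12 without 4 mg/L replicate 3 and 0.17 without replicate 2. In the same list DESeq2 called 1 gene and limma-voom 0.

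A pair of liver peptides and a globin gene changed as well. hamp (ENSDARG00000102175) encodes hepcidin, the hormone that blocks iron release from cells. It was 10.9, 6.87 and 7.20 CPM in the controls and 0.560, 1.82 and 1.54 CPM at 4 mg/L. Each treated library lay well under the lowest control, and the mean was 6.38-fold lower (log2 fold change −2.69, SE 0.36, adjusted p = 0.0076). zgc:194626 (ENSDARG00000104654), which the reference table names leap2, a peptide of the liver first described as antimicrobial, went the other way. It was 0.467, 0.382 and 0.460 CPM in the controls and 3.25, 1.75 and 1.98 CPM at 4 mg/L, 5.33-fold higher (log2 fold change 2.41, SE 0.34, adjusted p = 0.012; 0.10 without control 2). Among the 16 tested iron genes hamp was the only call: tfa, transferrin, was 838 ± 195 CPM against 397 ± 179 (adjusted p = 0.15), and hfe2, hemojuvelin, which promotes hepcidin expression in mammals, 12.6 ± 2.34 CPM against 21.1 ± 4.45 (adjusted p = 0.13). hbz (ENSDARG00000045142), a globin gene that the reference table names hbae5, was 1.31, 1.60 and 3.17 CPM in the controls and 39.1, 20.9 and 20.7 CPM at 4 mg/L. It was 13.3-fold higher (log2 fold change 3.78, SE 0.53, adjusted p = 0.012; 0.10 without control 2 and 0.080 without control 1), and globin copies can share reads. The other globins of red cells had log2 fold changes of 0.66 to 0.81 and were not called. The summed level of 5 red cell markers was 286, 295 and 583 CPM in the controls and 668, 641 and 684 CPM at 4 mg/L, with none at 0, and its part in the hbz value was not tested.

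The lower genes were led by muscle ubiquitin ligases and proteasome factors. fbxo32 (ENSDARG00000040277) encodes atrogin-1, a ligase that marks muscle proteins for breakdown. It was 71.4, 61.3 and 72.3 CPM in the controls and 12.4, 15.2 and 18 CPM at 4 mg/L. The groups were separated by a gap of more than 40 CPM, and the mean was 4.50-fold lower (log2 fold change −2.17, SE 0.25, adjusted p = 0.0044). trim63a, which encodes the ligase MuRF1, was 143, 146 and 159 CPM in the controls and 31.1, 49.8 and 42.7 CPM at 4 mg/L, 3.63-fold lower (log2 fold change −1.86, SE 0.24, adjusted p = 0.0074). klhl38b, a kelch-like adaptor gene, was 39.1, 41.7 and 48.3 CPM in the controls and 8.43, 11.3 and 13.9 CPM at 4 mg/L, 3.84-fold lower (log2 fold change −1.94, SE 0.26, adjusted p = 0.0076). fbxo32 and klhl38b were the only called genes next to each other in a reference annotation of the zebrafish genome, in which 54 of the 63 could be placed. Its build differs from that of the files, and only the order of genes was used.

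Several other genes of protein tagging and degradation fell as well. psme4a, a proteasome activator gene, was 86.3, 79.2 and 82.3 CPM in the controls and 18.3, 27.8 and 24.5 CPM at 4 mg/L, 3.51-fold lower (adjusted p = 0.018; 0.099 without 4 mg/L replicate 1). usp28, which encodes an enzyme that removes ubiquitin, was 52.0, 53.8 and 56.1 CPM in the controls and 19.2, 27.5 and 27.1 CPM at 4 mg/L, 2.20-fold lower (adjusted p = 0.027; 0.12 without 4 mg/L replicate 1). In both genes the controls were close together and replicate 1 was the lowest treated library. asb10, an adaptor of cullin ubiquitin ligases, fell 2.58-fold to 3.50 ± 0.677 CPM (adjusted p = 0.028; 0.13 without 4 mg/L replicate 1) and trim109 2.12-fold to 3.05 ± 0.364 CPM (adjusted p = 0.017; 0.075 without control 2). nfe2l1a, a transcription factor gene whose mammalian counterpart drives proteasome genes, was 47.0, 51.7 and 57.0 CPM in the controls and 27.1, 32.5 and 35.5 CPM at 4 mg/L, 1.64-fold lower (adjusted p = 0.046; 0.20 without 4 mg/L replicate 1). The 41 tested subunit genes of the proteasome had 27 above 0, a median log2 fold change of 0.05 (−0.04 without 4 mg/L replicate 1) and 0 called (edgeR; 1 with an unadjusted p under 0.05, 0 by DESeq2).

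**Figure D3:**
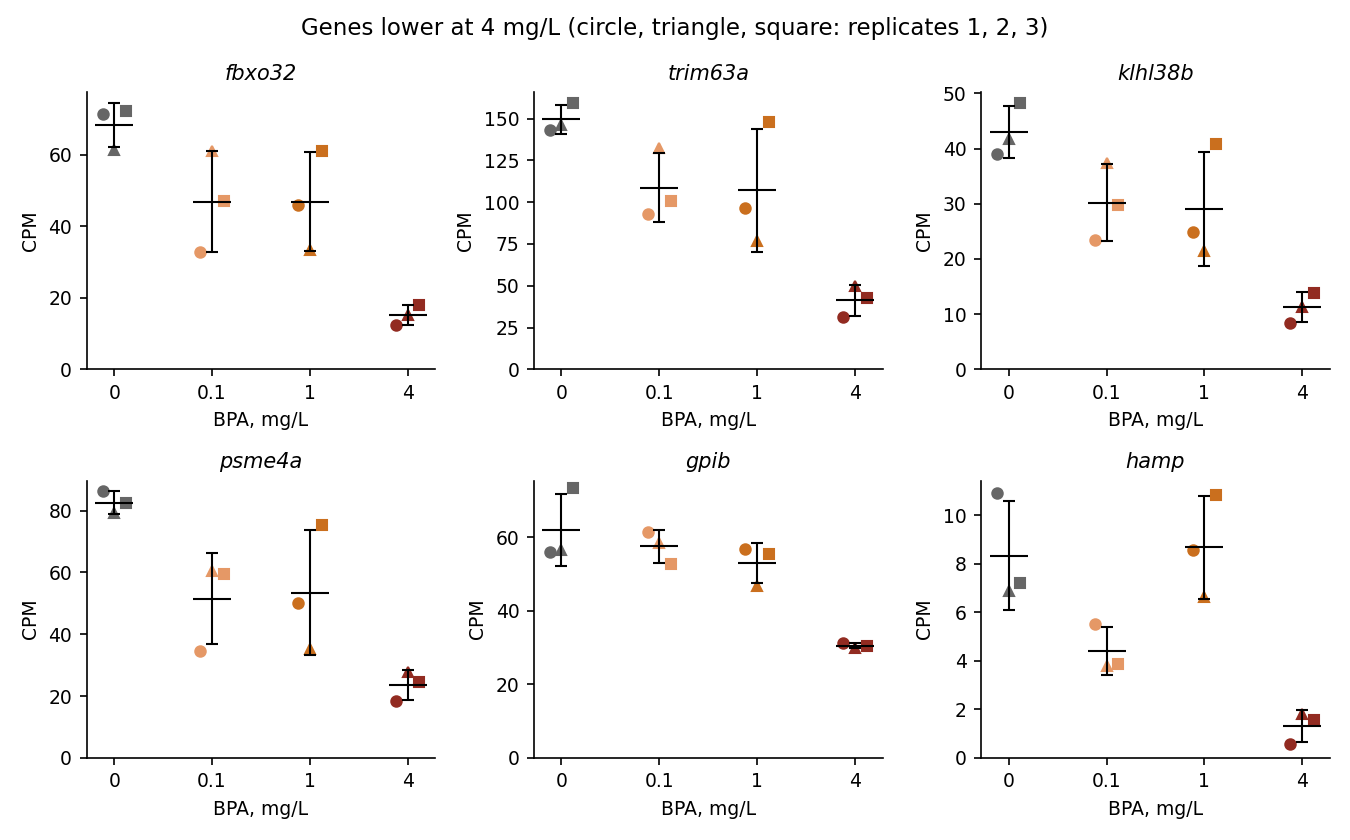
Level in CPM (vertical axis, from 0) by BPA dose in mg/L (horizontal axis) for 6 genes called lower at 4 mg/L; circle, triangle and square are replicates 1, 2 and 3, the long bar is the mean of the 3 libraries and the error bar 1 SD. For fbxo32 the libraries at 0.1 and 1 mg/L spread from 32.7 to 61.1 CPM and those at 4 mg/L lie at 18 CPM or less; hamp lies between 6.62 and 10.8 CPM at 1 mg/L, overlapping the controls at 6.87 to 10.9 CPM, and at 1.82 CPM or less at 4 mg/L.

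In the list of 38 tested genes of muscle atrophy and ubiquitin tagging, 8 were called lower and 0 higher, 29 were below 0 and the median log2 fold change was −0.41, with −0.43 to −0.39 when each of the 6 libraries was left out. Those called were fbxo32, trim63a, klhl38b, psme4a, usp28, asb10, DUSP27 and ppp1r27b, whereas trim109 and nfe2l1a were not on the list. DUSP27 and ppp1r27b counted as members but are grouped below with genes of muscle scaffolds, not of ubiquitin tagging. The list was drawn up with earlier results of these data in view, so its count is a description. Over all tested genes, 0.112% were called lower. The summed level of the list was 1590 to 1674 CPM in the controls and 944 to 1058 CPM at 4 mg/L. Not called were trim63b, the duplicate of trim63a (23.0 ± 2.25 CPM against 40.05 ± 7.01, adjusted p = 0.075), trim55b of the same ligase family (6.65 ± 0.267 against 15.2 ± 1.04, adjusted p = 0.076) and the myostatin gene mstnb (log2 fold change 0.21). Beside these genes, the sarcomere and calcium handling genes had 54 of 62 below 0, a median of −0.33 and 0 called by edgeR (21 with an unadjusted p under 0.05, 5 called by DESeq2). Their summed level was 98505 to 165358 CPM in the controls and 76779 to 101487 CPM at 4 mg/L, so that the groups overlapped. The 8 muscle markers ckma, ckmb, acta1b, tnnt3a, mylpfa, myhz2, smyhc1 and tnnc2 summed to 25976, 37302 and 41842 CPM in the controls and 21223, 24358 and 26116 CPM at 4 mg/L, with none at 0. The part of muscle RNA content in the lower genes was not tested.

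Genes of autophagy and of muscle scaffolds were also called lower. fam134b, named retreg1 in the reference table, encodes a receptor for autophagy of the endoplasmic reticulum. It was 15.14, 10.17 and 14.8 CPM in the controls and 4.12, 3.63 and 4.49 CPM at 4 mg/L, 3.27-fold lower (adjusted p = 0.022; 0.11 without 4 mg/L replicate 2). calcoco1a, of an autophagy receptor family, was 71.5, 70.5 and 62.8 CPM in the controls and 40.3, 47.6 and 45.1 CPM at 4 mg/L, 1.54-fold lower (adjusted p = 0.047; 0.23 without control 2). Of 41 tested genes of autophagy and of FOXO targets, 33 were at or below 0, 1 was called and the median log2 fold change was −0.19. The called gene was fam134b, and calcoco1a was not on the list. At an unadjusted p under 0.05 in edgeR, 14 were lower and 1 higher, and DESeq2 called 7 lower and 1 higher. On this list pdk2b, a kinase that shuts off pyruvate dehydrogenase, was 162 ± 40.08 CPM against 360 ± 16.6 (adjusted p = 0.064). DUSP27, named STYXL2 in the reference table and needed for myofibril order in zebrafish, was 112, 136 and 111 CPM in the controls and 38.8, 44.4 and 47.0 CPM at 4 mg/L, 2.76-fold lower (adjusted p = 0.027; 0.14 without 4 mg/L replicate 1). ppp1r27b, an inhibitory partner of protein phosphatase, was 22.9, 23.7 and 18.4 CPM in the controls and 5.07, 4.08 and 7.03 CPM at 4 mg/L, 4.02-fold lower (adjusted p = 0.028; 0.14 without 4 mg/L replicate 2). txlnba, a taxilin gene, fell 1.88-fold to 46.1 ± 8.58 CPM (adjusted p = 0.042; 0.17 without 4 mg/L replicate 1).

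Of the tested genes of glycolysis, glycogen and glucose formation, 3 of 57 were called lower and 0 higher. For all tested genes the shares were 0.112% called lower, 0.17% called higher and 49.6% above 0. As with the other lists, members were chosen with earlier results of these data known. gpib, which encodes a glucose-6-phosphate isomerase, was 56.1, 56.7 and 73.3 CPM in the controls and 31.2, 29.9 and 30.5 CPM at 4 mg/L. The treated libraries agreed within 2 CPM and the mean was 2.03-fold lower (log2 fold change −1.02, SE 0.13, adjusted p = 0.0074). pygma, the muscle glycogen phosphorylase gene, was 170, 182 and 219 CPM in the controls and 88.7, 106 and 96.5 CPM at 4 mg/L, 1.96-fold lower (adjusted p = 0.027; 0.14 without 4 mg/L replicate 1). pfkma, the muscle phosphofructokinase gene, was 93.7, 105 and 114 CPM in the controls and 51.6, 71.1 and 51.5 CPM at 4 mg/L, 1.80-fold lower (adjusted p = 0.048; 0.22 without 4 mg/L replicate 1). pygl, the phosphorylase gene of the liver, was 61.2 CPM beside 31 in the controls (adjusted p = 0.20) and pck1, which makes glucose in the liver, 233 ± 94.1 CPM against 131 ± 30.6 (adjusted p = 0.34). Over all 57 genes 34 were above 0 and the median was 0.09 (0.04 without 4 mg/L replicate 1 and 0.16 without replicate 3). At an unadjusted p under 0.05 in edgeR, 15 were lower and 6 higher, and DESeq2 called 12 lower and 2 higher. Their summed level was 11728 to 16662 CPM in the controls and 10113 to 10886 CPM at 4 mg/L, so that the groups did not overlap.

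The remaining lower genes have varied roles. igfbp6b, a second binding protein of insulin-like growth factors, was 19.5, 16.6 and 18 CPM in the controls and 11.1, 10.9 and 9.17 CPM at 4 mg/L, 1.73-fold lower (adjusted p = 0.026; 0.099 without control 3), opposite in direction to igfbp2a. aass, which starts lysine breakdown, was 86.3, 87.8 and 93.0 CPM in the controls and 58.0, 62.2 and 58.4 CPM at 4 mg/L, with tight groups and a 1.49-fold fall (adjusted p = 0.044; 0.20 without 4 mg/L replicate 1). The mesothelin gene mslna fell 3.04-fold to 7.83 ± 3.11 CPM (0.043; 0.20 without 4 mg/L replicate 1), SEPT4, a septin gene, 1.61-fold to 19.6 ± 0.811 CPM (0.041; 0.16 without 4 mg/L replicate 2) and syngr2b, a synaptogyrin gene, 1.81-fold to 29.8 ± 0.704 CPM (0.043; 0.18 without control 2). Of genes without a descriptive name, si:dkey-46i9.6 fell 2.27-fold (0.015; 0.075 without control 2), si:ch211-198i6.4 3.78-fold (0.047; 0.22 without 4 mg/L replicate 1) and si:ch1073-398f15.1 1.64-fold (0.0495; 0.22 without 4 mg/L replicate 1).

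Many called genes have a duplicate copy in the zebrafish genome. Called genes and tested duplicates of the same name formed 18 pairs. In 2 of these pairs, vtna with vtnb and slc30a1a with slc30a1b, both copies were called. The partner lay on the other side of 0 in 5 pairs. psme4b was 45.8 ± 2.79 CPM against 43.8 ± 4.93 (log2 fold change 0.06) where psme4a fell, and gpia was 153 ± 30.3 CPM against 131 ± 28.1 (0.22) where gpib fell. nfe2l1b had a log2 fold change of 0.39 and pygmb one of 0.42, and mthfd1b one of −0.10 where mthfd1a rose. In the same direction but smaller, slc41a2b was 18.1 ± 1.96 CPM against 17.0 ± 0.748 (0.09), and nr0b2a 13.6 ± 3.67 CPM against 7.13 ± 0.328 (0.93, adjusted p = 0.18). calcoco1b fell short of the threshold with a larger difference than calcoco1a, 9.44 ± 3.48 CPM against 31.2 ± 4.28. The called member of each pair was chosen by its change, so these ratios are a description, and reads shared between near-identical copies could shift them.

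The lower doses place the 63 genes along the dose range. The 0.1, 1 and 4 mg/L groups share the same controls, so their values stand side by side without a test of likeness. Over the 38 higher genes the median log2 fold change against control was 0.51 at 0.1 mg/L, 0.86 at 1 mg/L and 1.29 at 4 mg/L. Over the 25 lower genes it was −0.35, −0.29 and −1.13. Medians of the wider lists did not all follow this order. At 0.1, 1 and 4 mg/L they were 0.51, 0.86 and 0.81 for clotting genes and 0.43, 0.91 and 0.81 for complement. Lipoprotein genes gave 0.54, 0.68 and 0.59, hepatocyte genes 0.44, 0.79 and 0.48, and gut epithelium genes 0.40, 0.76 and 0.33. The muscle atrophy list gave −0.14, −0.15 and −0.41. cyp19a1b was 0.368, 0.419 and 0.268 CPM at 0.1 mg/L, a range that overlapped the controls. It was 2.18, 2.92 and 2.5 CPM at 1 mg/L, between the controls and the 14.6 to 25.5 CPM at 4 mg/L. f13a1a.1 was 1.64, 4.38 and 4.40 CPM at 1 mg/L and vtna 30.6, 40.4 and 25.6 CPM, ranges that overlapped those at 4 mg/L. fbxo32 was 32.7, 61.0 and 47.0 CPM at 0.1 mg/L and 46, 33.4 and 61.1 CPM at 1 mg/L, and both ranges lay above 4 mg/L.

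**Figure D4:**
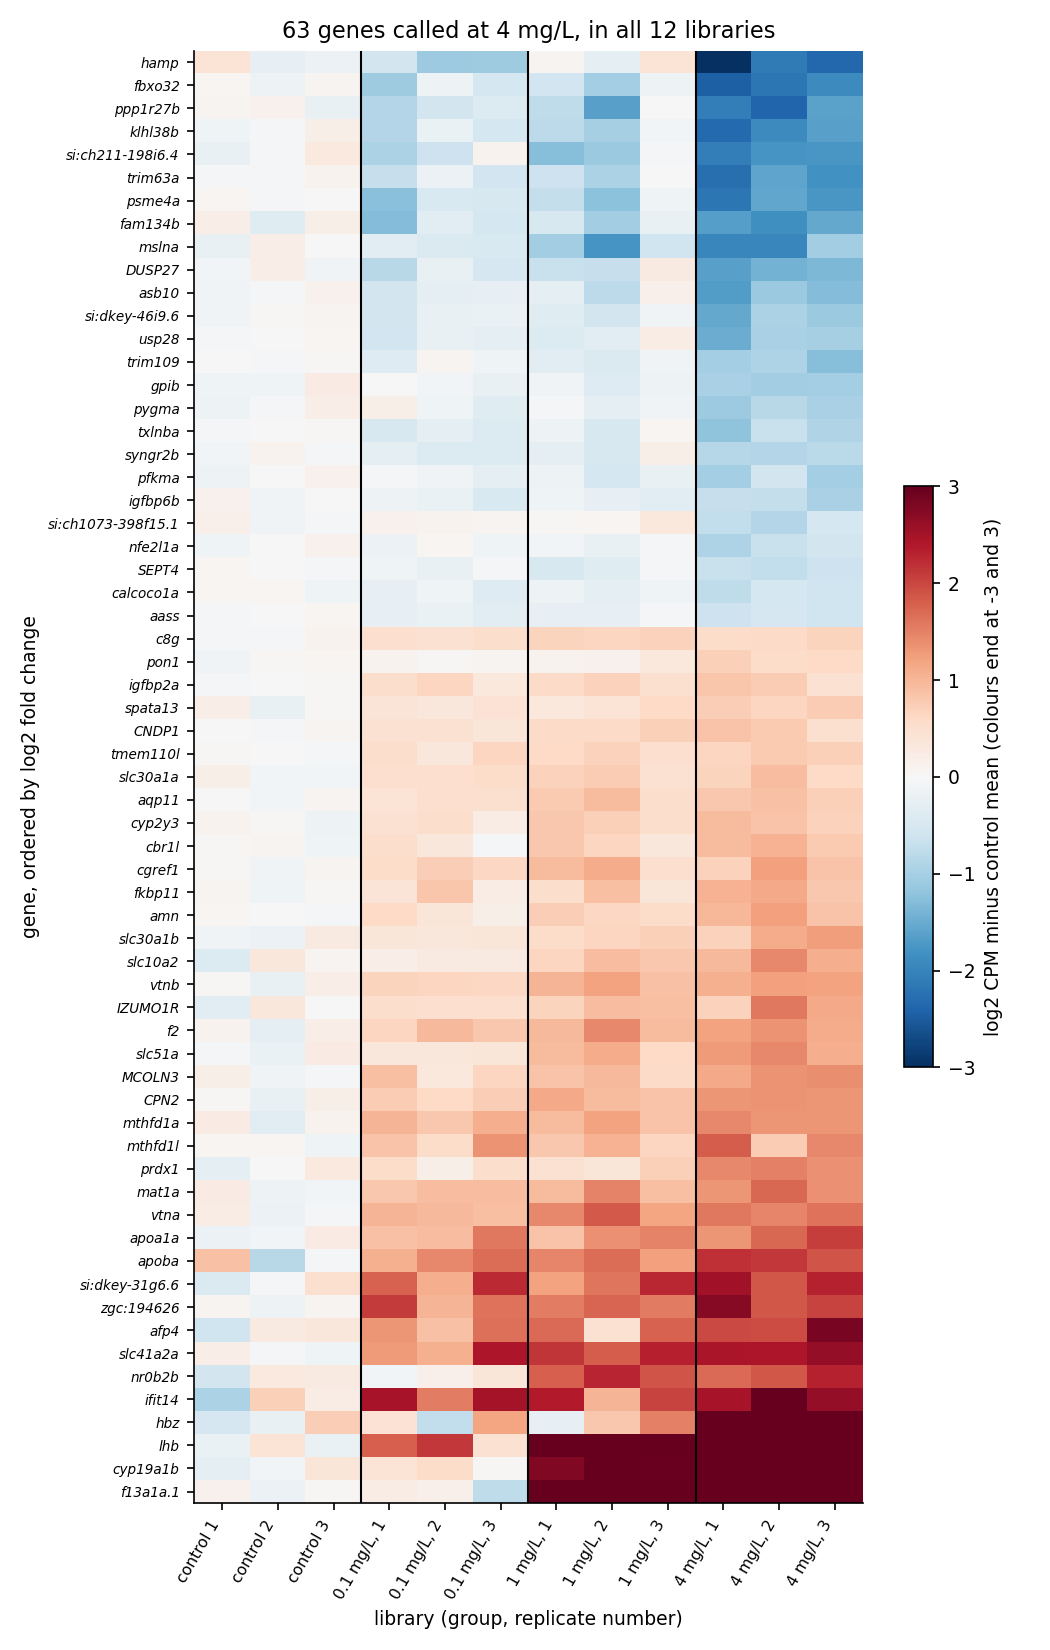
Log2 level of the 63 called genes (rows, ordered by log2 fold change at 4 mg/L) in all 12 libraries (columns, by group and replicate number), each relative to the mean of the 3 controls, with red above and blue below it. The medians of the higher genes are 0.51 at 0.1 mg/L and 0.86 at 1 mg/L against 1.29 at 4 mg/L, and those of the lower genes −0.35 and −0.29 against −1.13; single genes depart from this order.

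Tested directly, 2 genes differed between 4 and 1 mg/L (0.00893% of tested genes, 0.00446% in each direction): cyp19a1b was higher (log2 fold change 2.97, adjusted p = 0.00016) and hamp lower (−2.74, adjusted p = 0.048). Libraries of the same number deviated together between these groups, and with the replicate number as a block the count was 15, with 3 higher and 12 lower. Those that were also called against control were cyp19a1b, hbz and prdx1 above, and hamp, fbxo32, klhl38b, usp28, gpib and si:ch1073-398f15.1 below. From 1 to 4 mg/L the log2 difference was −1.62 for fbxo32 (adjusted p = 0.16 without the block and 0.044 with it), 0.93 for prdx1 (0.22 and 0.047) and 3.00 for hbz (0.21 and 0.046). Between 4 and 0.1 mg/L, 2 genes (0.00893%) were higher, cyp19a1b (log2 fold change 5.78, adjusted p = 7.9e-07) and f13a1a.1 (6.45, adjusted p = 0.023). With the block the count was 32, of which 15 were higher and 17 lower, among them slc51a, slc10a2, cbr1l, trim63a and gpib. hamp took an uneven course, with 5.52, 3.80 and 3.87 CPM at 0.1 mg/L, all below the controls, 8.56, 6.62 and 10.8 CPM at 1 mg/L and at most 1.82 CPM at 4 mg/L. The medians of these 63 genes are no independent sign of a dose order, because the 4 mg/L libraries chose them.

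**Figure D5:**
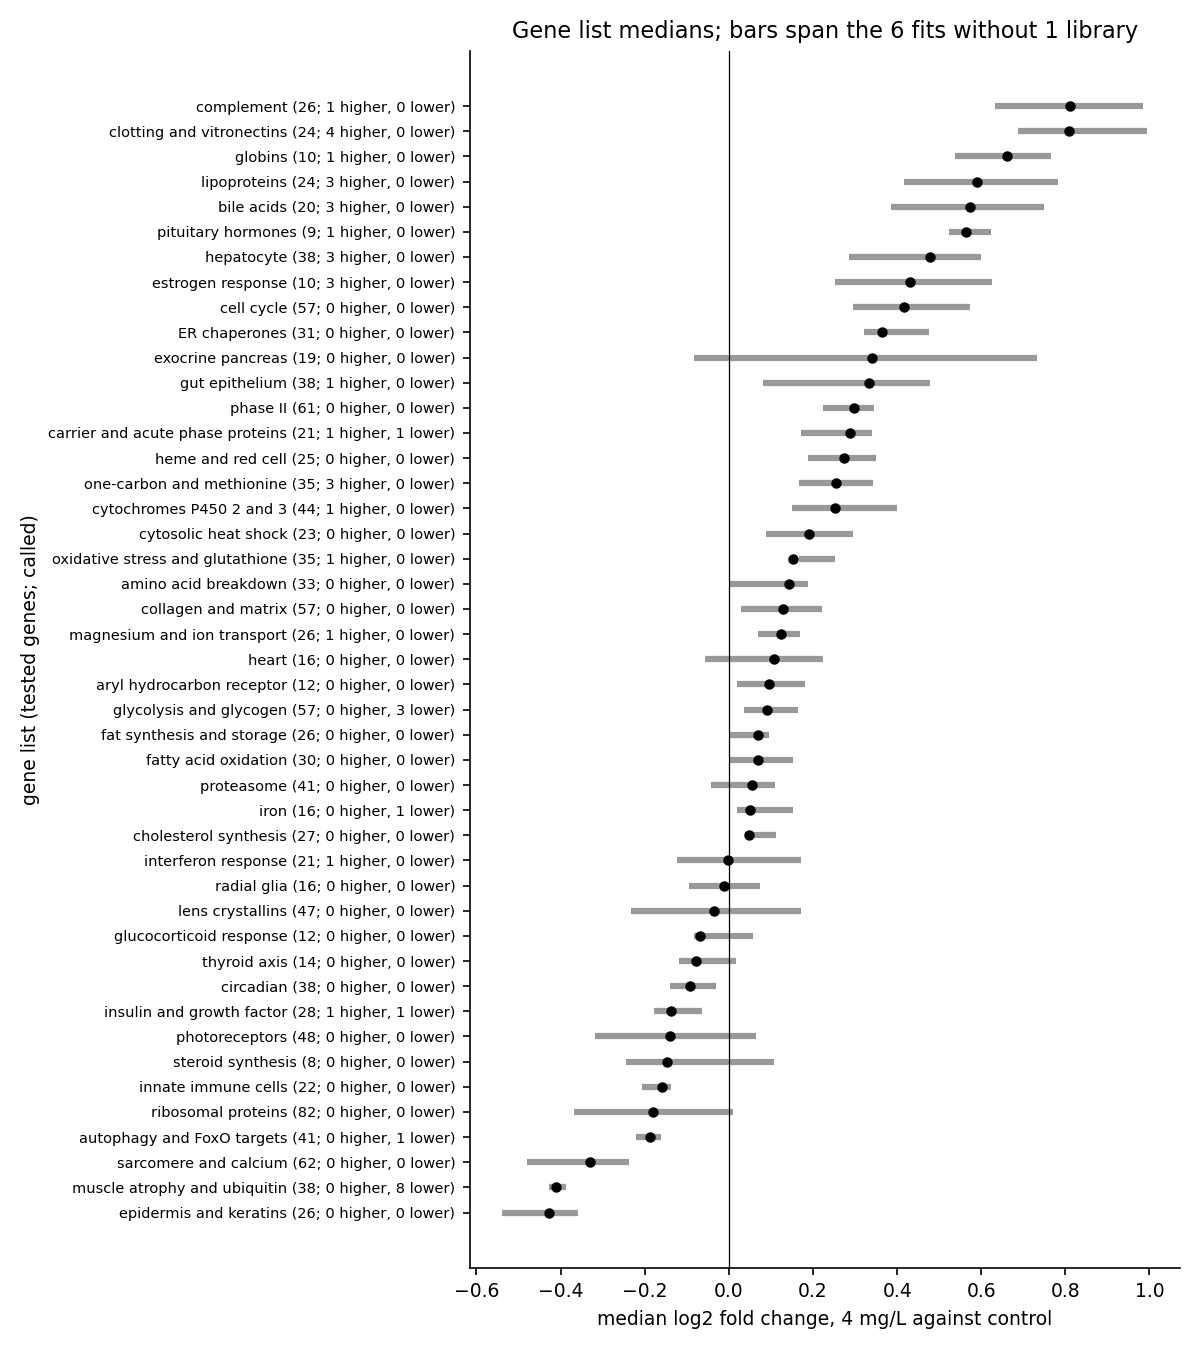
Median log2 fold change at 4 mg/L against control (horizontal axis) for each of 45 gene lists (vertical axis, with tested genes and calls); points are the medians with all libraries and grey bars span the 6 fits that leave out 1 library of the groups compared. Complement and clotting genes lie highest at 0.81 and epidermal genes lowest at −0.43; the bars of exocrine pancreas (−0.08 to 0.73) and of ribosomal proteins (−0.37 to 0.01) cross 0.

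Lists outside liver, gut and muscle mostly lay near 0. Medians were 0.11 for 16 heart genes, 0.05 for 27 cholesterol synthesis genes, 0.07 for 30 genes of fatty acid oxidation, −0.08 for 14 thyroid axis genes and −0.09 for 38 circadian genes, and none of these lists held a called gene in edgeR. With 1 library left out these medians ran from −0.14 to 0.22, and that of the heart genes was −0.06 without control 2. At an unadjusted p under 0.05 they held 1, 3, 2, 2 and 2 genes, and DESeq2 called 1 gene among them, of the circadian list. The 61 phase II conjugation genes, which attach sugar, sulfate or glutathione to foreign compounds, had 47 above 0 and a median of 0.30, with 0 called by edgeR, 23 with an unadjusted p under 0.05 and 7 called by DESeq2. Nearest to the threshold (adjusted p = 0.067) was ugt5a2, at 6.73 ± 1.6 CPM beside 2.99 ± 0.619 in the controls. All 82 ribosomal protein genes were below 0, with a median of −0.18, which was 0.01 without control 3. Among the lists further from 0 were 10 tested globin genes (median 0.66, 10 above 0) and 9 pituitary hormone genes (0.56, 6 above 0). The 25 heme and red cell genes had a median of 0.27, with 19 above 0. edgeR called 1, 1 and 0 genes of these 3 lists and DESeq2 2, 2 and 1, all higher.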

How the data were processed

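Poly-A RNA of pooled larvae was sequenced from stranded libraries, per the labels' protocols. The values deposited by the authors are whole-number counts per gene with totals that differ between libraries. The submitters' processing notes name CASAVA, STAR 2.5.1b, RSEM 1.2.28, DESeq2 1.10.1 and the build GRCz10, without roles, and the handling of reads shared between genes is not given in the sources used here. RSEM estimates need not be whole, so the values may be rounded estimates; intervals on counts treat them as reads counted singly.

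Groups and replicate numbers came from the sample titles. Genes were kept by filterByExpr (minimum count 10, minimum total 15) and scaled by TMM. edgeR 4.0.16 in R 4.3.3 gave a quasi-likelihood fit to the 12 libraries with no term but group; tests were two-sided with Benjamini-Hochberg adjustment over 22399 genes at 0.05. CPM uses TMM-scaled totals, and folds are ratios of mean CPM. The SE is the log2 fold change divided by the square root of F. The procedure was run on simulated counts without any effect of replicate number, so that run cannot show how such an effect would change the calls.

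The members and the 45 lists were chosen with earlier results of these data known. Named genes were 10 sentinels (cyp19a1b, cyp19a1a, esr1, esr2a, esr2b, vtg1, vtg2, f13a1a.1, lhb and cyp1a), the 15 called genes per direction with the smallest adjusted p, those called in all 6 fits without 1 library, called list members, the 2 nearest uncalled members of each list and the 5 largest folds per direction. All other called genes and list members named were chosen after their values were seen, and role groups were assigned after it. In the lists, member names were matched by symbol; zgc:194626 was added as leap2 from the reference table, which held 61 of the 63 called identifiers.

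Replicate numbers were checked by the correlation of deviations from group means. Same-numbered libraries gave 0.33, 0.44 and 0.48 for 1 and 4 mg/L, and 0.35, 0.24 and 0.27 for 0.1 and 4 mg/L, all above 0.1, so blocked values stand beside those comparisons; the labels do not say what a number marks. Alternatives were DESeq2 1.42.0, limma-voom (limma 3.58.1), other scalings, filters and designs, and each library left out; leaving out libraries of the lower doses was added after seeing the data.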

Additional observations from a re-analysis of the deposited data

How the results depend on the processing

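The 63 calls (38 higher, 25 lower) became 487 (247, 240) in DESeq2, which included 62 of them, and 1094 (585, 509) with the replicate number as a block, which included all 63. Same-numbered control and 4 mg/L libraries had deviations correlated at 0.38, −0.09 and 0.29 for numbers 1, 2 and 3. Numbers 1 and 3 thus deviated together and number 2 did not, and not every library correlated best with its own number. Whether the numbers pair these groups is therefore not settled, and the main fit treats them as unpaired. With only the 2 groups compared there were 47 (25 higher), and with only libraries numbered 1 and 2, 21 (14, 7). Leaving out 1 library of any group gave 14 to 106 calls, 8 to 56 higher and 5 to 52 lower. limma-voom, both other scalings and both other filters kept these counts within 1.5 times.

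For 4 against 1 mg/L, the 2 calls became 47 in DESeq2, 15 with the block, 1 in limma-voom, with upper-quartile scaling, with at least 1 CPM in 3 libraries and with only the 2 groups compared, 0 with libraries 1 and 2 only, and 1 to 2 with 1 library left out. For 4 against 0.1 mg/L, the 2 became 60 in DESeq2, 32 with the block, 1 in limma-voom, with the 2 groups only and with libraries 1 and 2 only, and 1 to 3 with 1 library left out. The cause of these differences was not tested. The log2 fold changes of esr2a and esr2b, neither of which was called, ran from −0.14 to 0.57 and from −0.086 to 0.26 with 1 library left out, and were negative without 4 mg/L replicate 2.

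With 3 libraries per group the depth of 21.95 to 32.13 M counts limits vtg1, vtg2 and lhb, which had 3 or fewer control counts. The description of promoter sequences was not run, since no sequence table was used here.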

Other observations

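Genes of cell division had 55 of 57 tested members above 0 at 4 mg/L; their median was 0.42 on the log2 scale (0.29 without 4 mg/L replicate 1 and 0.57 without control 1). edgeR called 0 of them, 20 had an unadjusted p under 0.05, all higher, and DESeq2 and limma-voom called 0. Subunits of the MCM helicase, which opens DNA for replication, were not alike: mcm5 was 50.9 CPM and 29 in the controls (0.81, adjusted p = 0.24), while mcm7 was 49.7 CPM against 47.5 (0.06). Folding factors of the endoplasmic reticulum had 29 of 31 above 0 and a median of 0.36, with 0 called by edgeR, 16 with an unadjusted p under 0.05 and 2 called by DESeq2. hspa5, the chaperone BiP, was 144 CPM against 76.8 (0.91, adjusted p = 0.32) and ddit3, a stress transcription factor, 33.7 ± 4.60 CPM against 49.1 ± 4.65 (−0.54, adjusted p = 0.19). Against 0.1 mg/L and with the replicate block, hspa5, hsp90b1 and hyou1 were higher at 4 mg/L, by 0.65, 0.76 and 0.81 on the log2 scale (adjusted p = 0.046, 0.046 and 0.035). Neither edgeR without the block nor DESeq2 called any of them in that comparison.

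Epidermal genes had 21 of 26 tested members below 0, with a median of −0.43; edgeR called 0, 10 had an unadjusted p under 0.05 and DESeq2 called 2. The skin keratin krt4 was 19879 CPM beside 29292 in the controls (−0.56, adjusted p = 0.44) and cyt1 5726 CPM against 10607 (−0.89, adjusted p = 0.29). The summed level of all 26 was 88075 to 109107 CPM in the controls and 69679 to 85691 CPM at 4 mg/L, so that the groups did not overlap. That of 4 epidermal markers was 43758, 63526 and 59618 CPM in the controls and 36180, 30341 and 44521 CPM at 4 mg/L, so that the groups overlapped.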
